A study of Mus musculus with 15 samples.

Results

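A group of 6 calcium-entry genes was followed across the series: the TRP cation channels Trpc1, Trpc6, Trpm4 and Trpv2, and the store-operated pair Stim1 and Orai1. They were taken by symbol, and every probe set annotated to them was kept, which gave 9 of the 45101 probe sets on the array and 6 of 18194 annotated genes. The mice were C57BL6J males aged between 10 and 12 weeks, and their RNA was read on 15 Affymetrix mouse genome arrays. SMC/pericyte cells sorted from brain by FACS made up 9 arrays, 5 of Notch3 -/- and 4 of Notch3 +/- mice, and the design text counts as many mice as arrays. Explants of aorta made up the other 6, with 3 Notch3 -/- and 3 Notch3 +/-. All mice therefore lacked at least 1 intact copy of Notch3, the Notch receptor found mainly in vascular smooth muscle and pericytes, and no wild-type arrays were analysed here. Whether each aorta array is a separate mouse is not stated, and its p-values describe only array-to-array spread, which may be technical.

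Calcium that enters a mural cell across the plasma membrane sets its tone and refills its internal store. STIM1 is a calcium sensor in the membrane of the endoplasmic reticulum that gathers beneath the plasma membrane when the store empties, and ORAI1 is the pore it opens. TRP channels pass cations less selectively: TRPC subunits act downstream of receptors coupled to phospholipase C, TRPM4 is opened by internal calcium and carries sodium rather than calcium, and TRPV2 responds to stretch and swelling in mouse vascular myocytes. In cerebral arteries TRPC6 and TRPM4 are known for their part in the depolarisation that follows a rise in pressure.

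Levels below are linear intensities that the authors had brought to a common target on every array. Notch3 itself was lower in Notch3 -/-: its brighter probe set read 210 ± 37.1 in Notch3 -/- and 2616 ± 222 in Notch3 +/- brain cells (SD, n = 5 and 4), and 108 ± 34.1 in Notch3 -/- and 401 ± 47.2 in Notch3 +/- aorta (n = 3 each). Replicates of a group correlated at r between 0.932 and 0.981. Markers of pericytes and smooth muscle were present in the brain preparation, among them the pericyte gene Rgs5, with a mean of 9961 in Notch3 -/- and 13485 in Notch3 +/-. So were markers of other brain cells, with the myelin gene Mbp at 23104 in Notch3 -/- and 22389 in Notch3 +/- and the choroid plexus gene Ttr at 23131 in Notch3 -/- and 28772 in Notch3 +/-. Rgs5 was not particular to the brain preparation, with means of 8375 in Notch3 -/- and 8024 in Notch3 +/- aorta. Another listed pericyte gene, Anpep, was low in brain, with means of 16.8 in Notch3 -/- and 11.65 in Notch3 +/-. Each gene lies, in RefSeq GRCm38.p6, on chromosome 7 for Stim1 (102261514 to 102437319) and Trpm4 (45303155 to 45334071), chromosome 9 for Trpc1 (95705072 to 95750386) and Trpc6 (8543867 to 8680752), chromosome 5 for Orai1 (123015074 to 123030452) and chromosome 11 for Trpv2 (62574486 to 62600305). The array tables name no genome build.

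Stim1, the store sensor, had 2 probe sets. At 1436945_x_at it read 248.9, 246, 201, 359 and 236 in Notch3 -/- brain arrays A, B, C, D and F, and 277, 267, 198 and 344 in Notch3 +/- brain arrays E, G, I and H. In aorta the same probe set read 137, 186 and 137 in Notch3 -/- arrays 5558, 5559 and 6167, and 152, 166 and 146 in Notch3 +/- arrays 5556, 5561 and 6166. Every brain array lay above every aorta array, and the genotypes overlapped in each preparation. At 1448320_at Stim1 read 89.4, 75.9, 83.6, 84.3 and 64.7 in Notch3 -/- brain arrays and 157, 106, 98.7 and 45.4 in Notch3 +/- brain arrays, in the same order of arrays. It read 101, 125 and 105 in Notch3 -/- aorta and 102, 131 and 131 in Notch3 +/- aorta. Here the order of preparations was turned round, with every Notch3 -/- aorta array above every Notch3 -/- brain array. The suffix _x_at marks a probe set that shares probes with other sequences, so its reading as Stim1 alone is uncertain.

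Orai1, the pore of store-operated entry, also had 2 probe sets. At 1424990_at the Notch3 -/- brain arrays read 361, 316, 277, 302 and 275, and the Notch3 +/- brain arrays read 324, 334, 301 and 469. In aorta it read 184, 217 and 190 in Notch3 -/- and 195, 209 and 178 in Notch3 +/-. At 1424989_at it read 349, 288, 240, 263 and 354 in Notch3 -/- brain and 235, 298, 487 and 408 in Notch3 +/- brain. In aorta that probe set read 101, 95.9 and 82.8 in Notch3 -/- and 96.0, 84.3 and 83.2 in Notch3 +/-. Both probe sets were higher in every brain array than in every aorta array. Within brain they did not rank the arrays alike, since array I was the lowest Notch3 +/- array at 1424990_at and the highest at 1424989_at.

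Trpc1 encodes a TRPC subunit that joins other TRPC subunits in mixed channels. At 1421096_at it read 106, 120, 145, 166 and 115 in Notch3 -/- brain arrays and 160, 164, 142 and 111 in Notch3 +/- brain arrays. In aorta it read 201, 222 and 195 in Notch3 -/- and 200, 192 and 194 in Notch3 +/-. All 6 aorta arrays exceeded all 9 brain arrays, the reverse of Orai1. The other Trpc1 probe set, 1421095_a_at, lay between 0.606 and 4.21 in the brain arrays and between 0.862 and 21.2 in the aorta arrays. That placed it under the median intensity of every array, and it did not pass the filter on low values.

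Trpc6, a channel opened by diacylglycerol, gave little signal. Its probe set read 8.38, 1.68, 6.98, 18.5 and 0.540 in Notch3 -/- brain arrays and 20.5, 29.2, 2.16 and 23.4 in Notch3 +/- brain arrays. In aorta it read 0.162, 0.783 and 0.352 in Notch3 -/- and 2.48, 7.87 and 2.74 in Notch3 +/-. The genotypes overlapped in brain and did not in aorta, but the highest array of the series stood at percentile 41.0 among the probe sets of its own array, and the aorta arrays between percentiles 0.1 and 19.8. Trpc6 therefore did not enter the main test.

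The promoters of Trpc1 and Trpc6 are shown because, among the 5 members with a RefSeq promoter in GRCm38.p6 (Trpc1, Trpc6, Trpv2, Stim1 and Orai1), they held a match to a motif of the pathway or cell type under study. Each runs from 250 bases before to 50 bases after an annotated start. Capitals mark TTCCCA in Trpc1, the reverse complement of TGGGAA, the core letters bound by the Notch cofactor RBPJ, and a CArG box in Trpc6, the element bound by serum response factor in smooth muscle genes.
Trpc1 promoter (chr9:95750299-95750598, minus strand): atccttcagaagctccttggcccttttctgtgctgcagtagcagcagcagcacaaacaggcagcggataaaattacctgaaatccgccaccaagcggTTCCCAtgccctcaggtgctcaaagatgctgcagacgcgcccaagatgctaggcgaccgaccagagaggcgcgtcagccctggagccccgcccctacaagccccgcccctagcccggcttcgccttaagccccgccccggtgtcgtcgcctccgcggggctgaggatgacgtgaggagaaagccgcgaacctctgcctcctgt
Trpc6 promoter (chr9:8543892-8544191, plus strand): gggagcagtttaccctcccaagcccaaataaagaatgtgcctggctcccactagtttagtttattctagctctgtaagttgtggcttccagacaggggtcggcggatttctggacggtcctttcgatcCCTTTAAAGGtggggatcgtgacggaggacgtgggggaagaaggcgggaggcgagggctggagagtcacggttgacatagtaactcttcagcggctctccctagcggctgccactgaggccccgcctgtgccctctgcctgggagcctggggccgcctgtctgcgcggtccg
The match in Trpc1 begins 153 bases before the start and that in Trpc6 begins 122 bases before it. TGGGAA on either strand occurred in 25.6% of 32851 promoters of this length, and a CArG box in 1.6%. The Trpc1 window held no CArG box and the Trpc6 window no TGGGAA on either strand. Neither motif was found in the windows of Trpv2 (3 starts), Stim1 or Orai1. A match of letters is a description and was not tested as a binding site.

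Trpm4, the calcium-activated channel, read 478, 409, 458, 436 and 436 in Notch3 -/- brain arrays and 484, 658, 454 and 643 in Notch3 +/- brain arrays. In aorta it read 232, 288 and 229 in Notch3 -/- and 241, 226 and 245 in Notch3 +/-. Every brain array was above every aorta array. In brain 2 Notch3 +/- arrays, G and H, stood above the rest, while E and I lay close to the Notch3 -/- arrays.

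Trpv2, the stretch-responsive channel, read 169, 201, 180, 217 and 146 in Notch3 -/- brain arrays and 282, 266, 177 and 351 in Notch3 +/- brain arrays. In aorta it read 156, 167 and 127 in Notch3 -/- and 166, 164 and 162 in Notch3 +/-. Arrays E, G and H were above all Notch3 -/- brain arrays and array I was within their range. The Notch3 -/- brain arrays overlapped the aorta arrays.

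**Figure D1:**
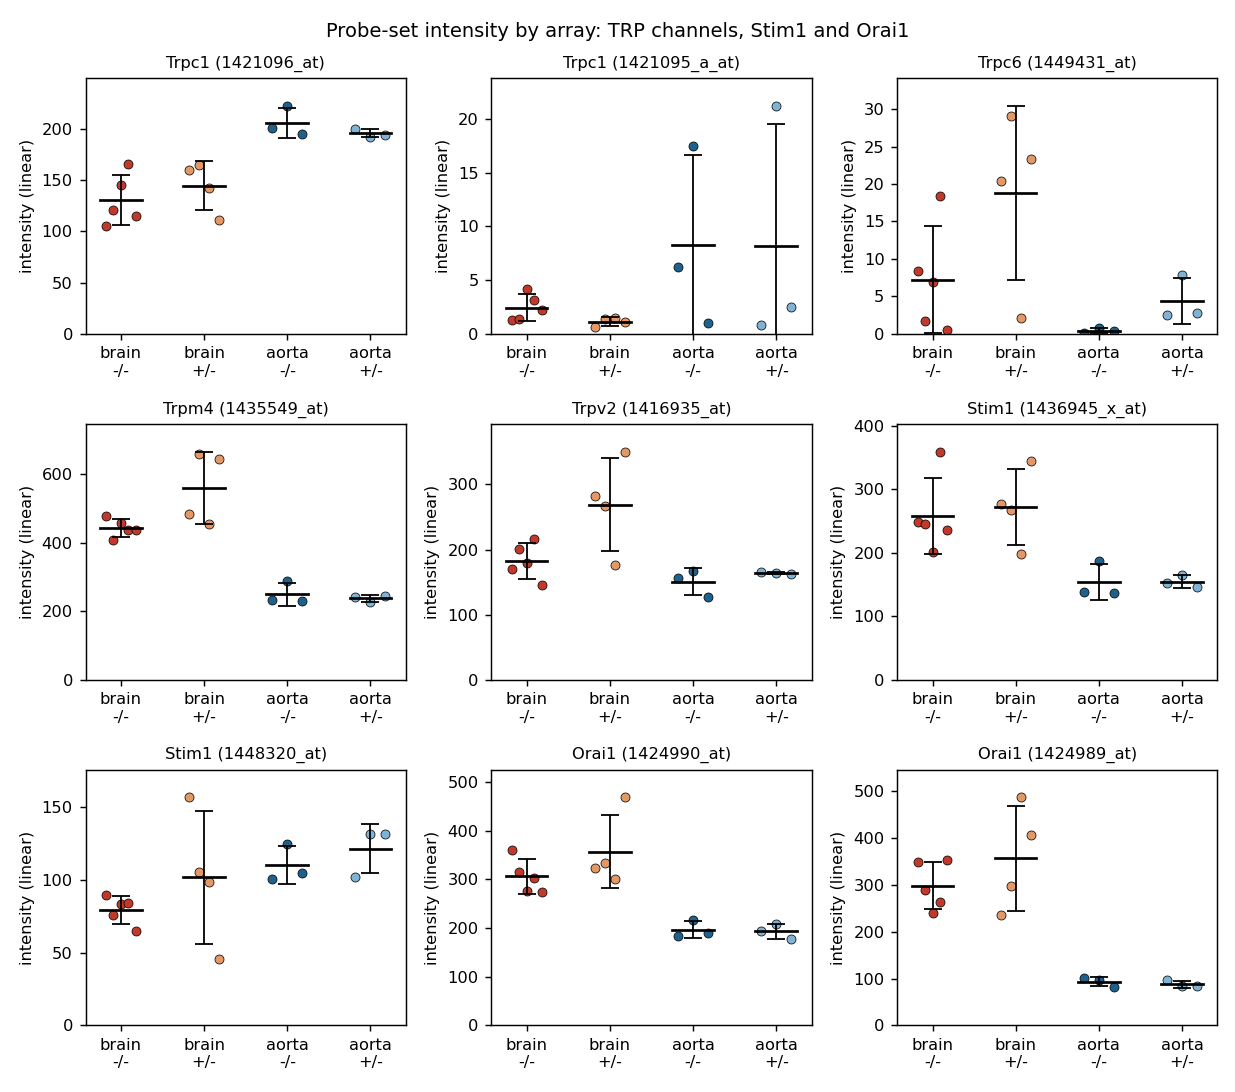
Linear intensity (y axis, from 0, arbitrary units, a separate scale per panel) of each of the 9 probe sets in brain Notch3 -/-, brain Notch3 +/-, aorta Notch3 -/- and aorta Notch3 +/- (x axis). Points are arrays, the wide line is the mean and bars are SD (n = 5, 4, 3 and 3), cut off at 0. Trpm4, both Orai1 probe sets and Stim1 at 1436945_x_at are higher in all brain arrays than in all aorta arrays, Trpc1 at 1421096_at is lower, and Trpc6 stays below 30 in every array.

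Loss of the remaining Notch3 copy was compared first in brain, the comparison named in the design text. No member passed the 5% threshold, although all 7 probe sets that entered the test had a lower mean in Notch3 -/- cells. Trpv2 had the largest difference of the 7, at 183 ± 27.5 in Notch3 -/- against 269 ± 71.5 in Notch3 +/- (SD, n = 5 and 4). This was a log2 difference of -0.50 (SE 0.19, 95% interval -0.91 to -0.08), with an unadjusted p of 0.0231 by limma and an adjusted p of 0.442. Trpm4 averaged 443 ± 26.2 in Notch3 -/- and 559 ± 106 in Notch3 +/- (log2 -0.31, SE 0.16, interval -0.64 to 0.03, limma adjusted p = 0.564). Differences are on the scale of log2(intensity + 16), which understates those of dim probe sets.

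Store-operated genes and Trpc1 differed less between genotypes in brain. Orai1 gave log2 -0.20 (interval -0.55 to 0.16) at 1424990_at and -0.21 (-0.66 to 0.24) at 1424989_at. Stim1 gave -0.07 (-0.48 to 0.35) at 1436945_x_at and -0.21 (-0.75 to 0.33) at 1448320_at. Trpc1 gave -0.13 (-0.52 to 0.25). With 1 array left out the values ranged from -0.27 to -0.07 for Orai1 at 1424990_at and from -0.38 to -0.05 at 1424989_at, from -0.20 to 0.05 for Stim1 at 1436945_x_at and from -0.49 to 0.0028 at 1448320_at, and from -0.24 to -0.07 for Trpc1. The intervals leave room for differences of either sign. Of all 22519 probe sets tested, 0.142% passed (32), against 0 of 7 here by limma. At an unadjusted p under 0.05 the counts were 1 of 7 member probe sets and 9.39% of all. A lower mean in Notch3 -/- was found in 48.3% of all probe sets. The median over the 5 member genes tested, at the brightest probe set of each, was -0.20, beside 0.01 over all probe sets. In none of the 9 were the brain genotypes free of overlap, which was the case for 3.3% of all probe sets tested. Without the filter on low values Trpc6 gave log2 -0.56 (interval -1.17 to 0.06, adjusted p = 0.682).

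Smooth muscle markers moved with the same comparison. The summed intensity of the 11 listed markers lay between 14450 and 22840 in Notch3 -/- and between 28703 and 47205 in Notch3 +/- brain arrays, and 5 of the 11 passed lower by limma (Casq2, Smtn, Tagln, Myh11 and Myl9, log2 -1.80 to -1.16). All 11 had a lower mean in Notch3 -/-. Acta2 carried much of the sum (means of 12907 in Notch3 -/- and 20581 in Notch3 +/-) and did not pass (log2 -0.64, limma adjusted p = 0.352). The 10 pericyte markers summed to between 26508 and 35703 in Notch3 -/- and between 27654 and 57854 in Notch3 +/-. The 9 fibroblast markers summed to between 4906 and 9046 in Notch3 -/- and between 4119 and 5558 in Notch3 +/-. None of the 9 pericyte and 8 fibroblast markers tested passed by limma. The part of any of these cell types in the differences of the members was not tested. In bulk RNA of this kind fewer cells of a type and less RNA per cell cannot be told apart.

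In aorta the genotypes lay closer together. No member passed, and differences ran from log2 -0.12 for Trpv2 (150 ± 20.8 in Notch3 -/- against 164 ± 1.59 in Notch3 +/-, n = 3 each, interval -0.41 to 0.17) to 0.07 for Orai1 at 1424989_at (93.2 ± 9.30 in Notch3 -/- against 87.8 ± 7.12 in Notch3 +/-, interval -0.23 to 0.38). Trpm4 gave 0.06 (-0.21 to 0.33), Trpc1 0.07 (-0.18 to 0.31), Orai1 at 1424990_at 0.02 (-0.25 to 0.29), and Stim1 -0.02 (-0.34 to 0.31) and -0.12 (-0.45 to 0.21). The limma adjusted p was 0.999 for each of the 7. The share called over all 22519 probe sets was 0%, and at an unadjusted p under 0.05 the counts were 0 of 7 and 4.35% of all. Of the 9 member probe sets only Trpc6 had genotypes that did not overlap, beside 9.49% of all 45037 probe sets without the filter (9.47% of those tested). Its log2 difference without the filter was -0.30 (interval -0.57 to -0.03, adjusted p = 0.9999).

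**Figure D2:**
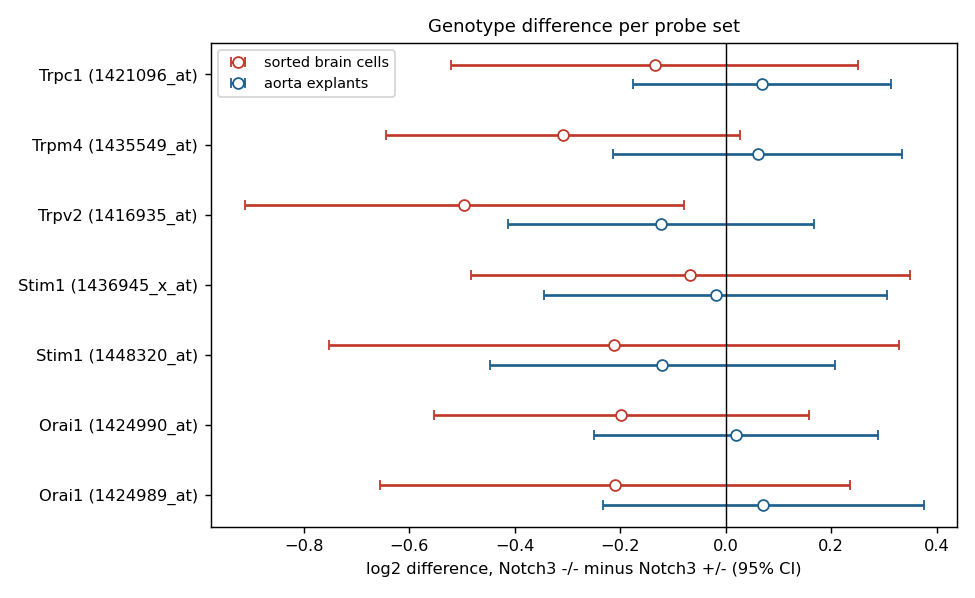
Log2 difference, Notch3 -/- minus Notch3 +/- (x axis), with its 95% interval from limma, for the 7 member probe sets tested (y axis), in sorted brain cells (red) and aorta explants (blue). Open circles mark an adjusted p above 5%, which holds for all 14 values. All 7 brain values lie below 0, from -0.50 for Trpv2 to -0.07 for Stim1.

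Whether the genotype difference itself differed between brain and aorta was tested in 1 fit over the 15 arrays. It did not pass for any member, with limma adjusted p of 0.997 for each of the 7. The difference in brain minus that in aorta was -0.37 for Trpv2 (interval -0.93 to 0.19) and -0.37 for Trpm4 (-0.81 to 0.07), and between -0.28 and -0.05 for the others. Over all probe sets 0.0178% passed (4), and at an unadjusted p under 0.05 the counts were 0 of 7 and 4.76% of all.

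More member probe sets passed between preparations than between genotypes. Among the probe sets tested, Trpv2 was an exception in size in Notch3 -/-. Its genotype difference in brain (log2 -0.50) was larger there than its difference between preparations (0.25), and neither passed. In Notch3 +/- its difference between preparations was the larger (0.63). In Notch3 -/- arrays Trpm4, Orai1 at both probe sets and Stim1 at 1436945_x_at were higher in sorted brain cells than in aorta, and Trpc1 and Stim1 at 1448320_at were lower. The 2 comparisons of preparations share no arrays. In Notch3 +/- arrays Trpm4, Orai1 at both probe sets, Stim1 at 1436945_x_at and Trpv2 were higher in brain, and none passed lower. Of the 7 probe sets tested, 4 were higher and 2 lower in Notch3 -/-, beside 33.6% and 28.9% of all probe sets (62.5% together). In Notch3 +/- 5 were higher and 0 lower, beside 26.5% and 25.2% (51.8% together). With each array centred on its median the split over all probe sets was 5915 higher and 7770 lower in Notch3 -/-, against 7558 and 6518 as scaled by the authors, and 4584 higher and 6855 lower in Notch3 +/-, against 5976 and 5685. No member changed direction under it. Since most of the probe sets tested passed in each genotype, counts among 7 say little about these genes as a set. In Notch3 +/- the calls leaned to higher (5 higher and 0 lower), beside 26.5% and 25.2% of all probe sets tested. That lean was not tested against the background.

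Orai1 at 1424989_at showed the largest difference between preparations among the member probe sets tested. At its brighter probe set, 1424990_at, the difference was smaller than that of Trpm4 in both genotypes. At 1424989_at Orai1 averaged 299 ± 51.1 in brain against 93.2 ± 9.30 in aorta in Notch3 -/- (SD, n = 5 and 3), a 2.86-fold difference (log2 1.51, SE 0.16, limma adjusted p = 2.50e-06). In Notch3 +/- it averaged 357 ± 112 against 87.8 ± 7.12 (n = 4 and 3), a 3.47-fold difference (log2 1.80, SE 0.24, adjusted p = 9.16e-05). The other probe set gave the same direction at a smaller size, 1.51-fold in Notch3 -/- (log2 0.60, adjusted p = 0.00225) and 1.76-fold in Notch3 +/- (log2 0.81, adjusted p = 0.00357). Both stayed past the threshold with any 1 array left out.

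Trpm4 averaged 443 ± 26.2 in brain against 250 ± 33.5 in aorta in Notch3 -/-, and 559 ± 106 against 238 ± 9.84 in Notch3 +/-. The differences were 1.74-fold in Notch3 -/- (log2 0.80, SE 0.13, limma adjusted p = 0.000137) and 2.24-fold in Notch3 +/- (log2 1.16, SE 0.18, adjusted p = 0.000272), and each passed with any 1 array left out. Trpv2 averaged 183 ± 27.5 against 150 ± 20.8 in Notch3 -/- (log2 0.25, adjusted p = 0.188), which did not pass. In Notch3 +/- it averaged 269 ± 71.5 against 164 ± 1.59 (log2 0.63, SE 0.21, adjusted p = 0.0301). That call was lost without array E (adjusted p = 0.0591), G (0.0595), H (0.0539), 5556 (0.0770), 5561 (0.0809) or 6166 (0.0844), and without array I it was 0.00342.

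The probe sets of Stim1 disagreed between preparations. At 1436945_x_at it averaged 258 ± 59.6 in brain against 154 ± 28.6 in aorta in Notch3 -/- (log2 0.68, SE 0.18, limma adjusted p = 0.00529) and 271 ± 60.0 against 154 ± 10.2 in Notch3 +/- (log2 0.73, SE 0.20, adjusted p = 0.00907). At 1448320_at it averaged 79.6 ± 9.62 against 110 ± 12.9 in Notch3 -/- (log2 -0.40, SE 0.16, adjusted p = 0.0465) and 102 ± 45.5 against 121 ± 17.0 in Notch3 +/- (log2 -0.31, adjusted p = 0.417). The lower call in Notch3 -/- was lost without array B (adjusted p = 0.0632), C (0.0551), D (0.0534), F (0.0889), 5558 (0.0728), 5559 (0.190) or 6167 (0.0843). No direction for Stim1 as a gene can be given from these values.

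Trpc1 was the member with a lower level in brain. At 1421096_at it averaged 130 ± 24.5 in brain against 206 ± 14.5 in aorta in Notch3 -/-, a 1.53-fold difference (log2 -0.61, SE 0.16, limma adjusted p = 0.00515) that passed with any 1 array left out. In Notch3 +/- it averaged 144 ± 24.0 against 195 ± 3.88 (log2 -0.41, SE 0.18, adjusted p = 0.0749), which did not pass, although the arrays did not overlap. It passed with each array centred on its median (adjusted p = 0.0235) and with all 15 arrays in 1 fit (0.0459). Arrays of the preparations did not overlap at 60% of all probe sets in Notch3 -/- and at 56.2% in Notch3 +/-. The Trpc6 differences without the filter, log2 0.45 in Notch3 -/- (adjusted p = 0.115) and 0.70 in Notch3 +/- (0.111), did not pass.

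**Figure D3:**
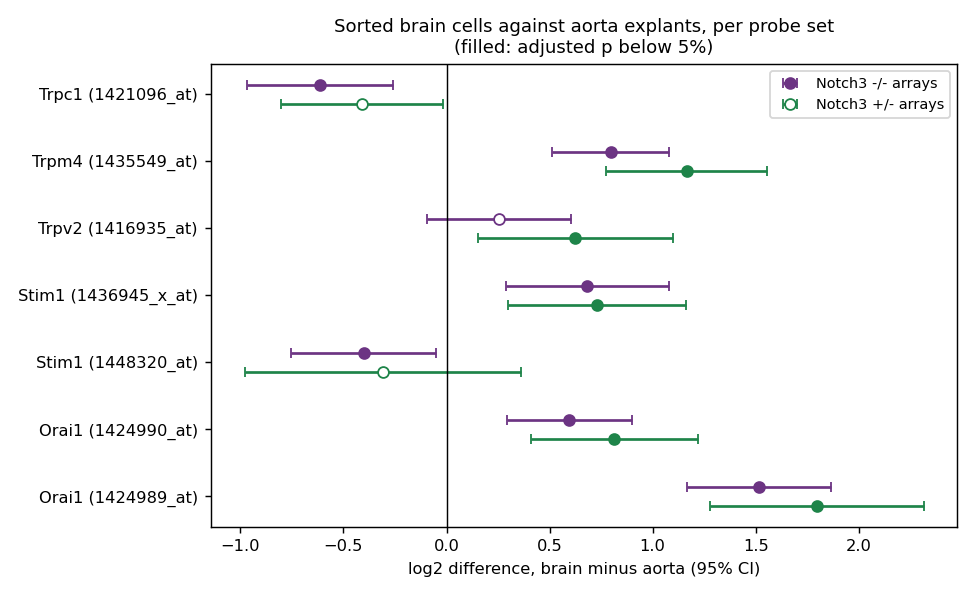
Log2 difference, sorted brain cells minus aorta explants (x axis), with its 95% interval from limma, for the 7 member probe sets tested (y axis), in Notch3 -/- arrays (purple) and Notch3 +/- arrays (green). Filled circles passed 5% after adjustment over all probe sets. Orai1 at 1424989_at lies farthest from 0, at 1.51 and 1.80, and the 2 Stim1 probe sets fall on opposite sides of 0.

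Ordering the groups by mean level gave the same first place, Notch3 +/- brain, for Trpm4, both Orai1 probe sets, Stim1 at 1436945_x_at, Trpv2 and Trpc6. For Trpm4, Orai1 and Stim1 at 1436945_x_at the only gap between neighbours was that between brain and aorta, and the genotypes on each side of it overlapped. Trpc1 at 1421096_at ran from Notch3 -/- aorta through Notch3 +/- aorta and Notch3 +/- brain to Notch3 -/- brain, with its only gap again between the preparations. For Trpv2, Stim1 at 1448320_at and Trpc1 at 1421095_a_at all neighbours in the order overlapped.

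Cell composition and handling differed between the preparations as well. Brain cells were sorted straight into lysis buffer while aorta RNA came from whole explants through Trizol, per the labels, so preparation and tissue cannot be told apart. The 11 endothelial markers measured summed to between 34808 and 47198 in brain arrays and between 1989 and 2321 in aorta arrays. Cldn5 and Slco1a4 carried most of the brain sum (means of 15019 and 18528 in Notch3 -/- brain), and Pecam1 was lower in brain in both genotypes. The 8 oligodendrocyte markers summed to between 30738 and 48430 in brain and between 449 and 935 in aorta, and the 8 astrocyte markers to between 13149 and 34363 in brain and between 2036 and 3368 in aorta. The 6 choroid plexus and ependymal markers summed to between 18797 and 45129 in brain and between 64.7 and 115 in aorta. Ttr carried most of that brain sum (means of 23131 in Notch3 -/- and 28772 in Notch3 +/-), and Mbp much of the oligodendrocyte sum (23104 in Notch3 -/- and 22389 in Notch3 +/-). All markers tested of these lists were higher in brain (choroid plexus and ependymal, 5 in Notch3 -/- and 4 in Notch3 +/-, oligodendrocyte, 7 in each). The 11 microglia and macrophage markers summed to between 9476 and 17996 in brain and between 4329 and 5942 in aorta, but Csf1r carried most of that sum (a mean of 10705 in brain against 2160 in aorta in Notch3 -/-). Of the 9 tested, 2 were higher in brain and 3 lower (Tmem119, C1qa and C1qc) in Notch3 -/-, and 2 were higher and 2 lower (Tmem119 and C1qa) in Notch3 +/-. Fibroblast markers ran the other way, between 4119 and 9046 in brain and between 39900 and 43228 in aorta, as did the 5 adipocyte markers measured, between 46.3 and 135 in brain and between 3280 and 7175 in aorta. Smooth muscle markers summed to between 14450 and 47205 in brain and between 49889 and 56667 in aorta, although Casq2 and Des were higher in brain in both genotypes. Acta2 carried much of the brain sum (means of 12907 in Notch3 -/- and 20581 in Notch3 +/-). It was higher in brain in Notch3 +/- (log2 0.80, limma adjusted p = 0.013) and did not pass in Notch3 -/- (0.15, 0.379). The other 8 of the 11 were lower in brain in both genotypes. The pericyte markers summed to between 26508 and 57854 in brain and between 17858 and 21472 in aorta. Vtn was a large part of that gap, at 8726 in brain against 7.09 in aorta in Notch3 -/- and 10998 against 22.1 in Notch3 +/-. Abcc9 was lower in brain in both genotypes and Cspg4 was lower in Notch3 -/-. The 9 neuron markers summed to between 629 and 1695 in brain and between 193 and 874 in aorta. The part of these cells in the members' levels was not tested.

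The rest of the calcium-entry pathway was read from 4 lists of related genes, at the brightest probe set of each gene. Between genotypes no gene of these lists passed 5% by limma in brain (0 of 33 tested) or in aorta (0 of 31). At an unadjusted p under 0.05 there was 1 in brain (Plcb3) and 3 in aorta (Orai3, Stimate and Nfatc2), beside 9.39% of all probe sets in brain and 4.35% in aorta. In brain the smallest p of each list belonged to the TRP channel kinase Trpm7 (log2 0.37, adjusted p = 0.575), Orai2 (0.11, 0.918), the phospholipase Plcb3 (-0.43, 0.434) and the calcineurin subunit Ppp3cc (0.36, 0.638). In aorta it belonged to the TRP gene Trpc2 (0.31, 0.999), the pore subunit Orai3 (-0.53, 0.947), Plcb3 (0.24, 0.999) and the transcription factor Nfatc2 (-0.41, 0.999). The difference of the genotype effect between brain and aorta passed for 0 of 34 genes, with 1 (Plcb3) at an unadjusted p under 0.05. The smallest p of each list there belonged to Plcb3 (log2 -0.67, limma adjusted p = 0.828), Trpm7 (0.39, 0.997), Stimate (-0.49, 0.997) and Nfatc2 (0.62, 0.997). The medians of the lists in brain were 0.20 for other TRP channels, -0.01 for other store-operated genes, 0.05 for phospholipase and store release and 0.08 for calcineurin and NFAT, beside 0.01 over all probe sets.

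Between preparations the other TRP channels showed both directions. In Notch3 -/- 6 of 8 tested were higher in brain and 1 lower, and in Notch3 +/- 4 of 7 were higher and 1 lower, beside 33.6% higher and 28.9% lower of all probe sets in Notch3 -/- and 26.5% higher and 25.2% lower in Notch3 +/-. Trpm6, a magnesium channel, averaged 371 ± 70.1 in brain against 48.7 ± 11.3 in aorta in Notch3 -/- (log2 2.58) and 337 ± 24.4 against 53.0 ± 7.40 in Notch3 +/- (log2 2.36). Trpm3 averaged 204 ± 71.0 in brain against 28.0 ± 2.46 in aorta in Notch3 -/- and 251 ± 119 against 23.2 ± 3.74 in Notch3 +/-. Trpc4, a close relative of Trpc1, averaged 113 ± 22.2 in brain against 3.71 ± 1.40 in aorta in Notch3 -/-, and 97.2 ± 35.7 against 4.22 ± 0.793 in Notch3 +/-, where it did not pass the filter. In Notch3 -/- Trpc7 averaged 83.87 in brain against 30.15 in aorta. These mean aorta levels of Trpm3, Trpc4 and Trpc7 lie under the medians of the aorta arrays (35.9 to 41.9). Where tested, the genes passed the filter through their brain arrays, so no fold is given for them. They are among the genes counted as higher above. Trpm7 was lower in brain, at 493 ± 60.1 against 1129 ± 71.5 in Notch3 -/- (log2 -1.18) and 387 ± 109 against 1149 ± 129 in Notch3 +/- (log2 -1.57). The lysosomal channel Mcoln1 was higher in both genotypes (log2 1.02 in Notch3 -/- and 0.97 in Notch3 +/-), as was Trpm2 (0.86 in Notch3 -/- and 0.79 in Notch3 +/-).

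Partners of Stim1 and Orai1 mostly did not pass between preparations. Stim2, the second store sensor, gave log2 0.13 in Notch3 -/- and 0.17 in Notch3 +/-, and Saraf, a brake on store-operated entry, 0.13 in Notch3 -/- and 0.10 in Notch3 +/-. Stimate, an endoplasmic reticulum protein that helps STIM1 reach the plasma membrane, was lower in brain, at 255 ± 55.6 against 756 ± 146 in Notch3 -/- (log2 -1.51) and 252 ± 12.8 against 531 ± 82.7 in Notch3 +/- (log2 -1.02). Orai3 averaged 27.5 ± 26.5 in brain against 127 ± 12.2 in aorta in Notch3 +/-, and did not pass the filter in Notch3 -/-. Its mean in Notch3 +/- brain lies under the medians of those arrays (42.1 to 51.4). It passed the filter there through its aorta arrays, so no fold is given for it. The limma adjusted p of Stimate was at most 0.000344 in either genotype. The median of the list was 0.13 in Notch3 -/- and 0.14 in Notch3 +/-, beside 0.11 in Notch3 -/- and 0.07 in Notch3 +/- over all probe sets.

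Upstream of entry, receptors signal through Gq and phospholipase C to IP3 receptors on the store. In this list 5 of 10 tested were higher in brain and 3 lower in Notch3 -/-, and 5 higher and 2 lower in Notch3 +/-. These 8 and 7 calls of 10 stand beside 62.5% of all probe sets called in Notch3 -/- and 51.8% in Notch3 +/-. The IP3 receptor Itpr2 was higher by log2 1.76 in Notch3 -/- and 1.81 in Notch3 +/-, and Itpr3 by 1.89 in each. Of the phospholipases, Plcg1 was higher by 1.13 in Notch3 -/- and 0.85 in Notch3 +/-, and Plcg2 by 1.68 in Notch3 -/- and 1.36 in Notch3 +/-. The G-protein subunit Gna11 was higher in both genotypes, with means of 1879 in brain against 918 in aorta in Notch3 -/- and 2288 against 834 in Notch3 +/- (log2 1.43). Plcb4 was lower in both (-1.10 in Notch3 -/- and -1.20 in Notch3 +/-), and the ryanodine receptor Ryr2 was lower in both (-1.79 in Notch3 -/- and -1.38 in Notch3 +/-). The median of this list was 0.64 in Notch3 -/- and 0.46 in Notch3 +/-. Downstream of entry, calcineurin and its NFAT factors had 4 of 10 higher and 4 lower in Notch3 -/-, and 2 higher and 4 lower in Notch3 +/-, against the same shares of all probe sets (62.5% in Notch3 -/- and 51.8% in Notch3 +/-). The catalytic subunit Ppp3cc was 465 ± 124 in brain against 49.0 ± 6.23 in aorta in Notch3 -/- (log2 2.85) and 356 ± 92.0 against 61.5 ± 7.80 in Notch3 +/- (log2 2.24), and Nfatc4 was also higher (1.16 in Notch3 -/- and 1.44 in Notch3 +/-). Rcan1, a calcineurin regulator, was higher in Notch3 -/- (1.17). The subunit Ppp3cb was lower (-0.88 in Notch3 -/- and -0.81 in Notch3 +/-), as were Ppp3r1 (-0.85 in Notch3 -/- and -0.90 in Notch3 +/-) and the regulator Rcan2 (-1.22 in Notch3 -/- and -0.95 in Notch3 +/-), and Nfatc3 was lower as well (-0.51 in Notch3 -/- and -0.55 in Notch3 +/-). The median was -0.08 in Notch3 -/- and -0.16 in Notch3 +/-. The other TRP channels had a median of 1.06 in Notch3 -/- and 0.79 in Notch3 +/-. Those medians include genes let in through their brain arrays, Trpc4, Trpc7 and Trpm3 in Notch3 -/- and Trpm3 in Notch3 +/-.

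**Figure D4:**
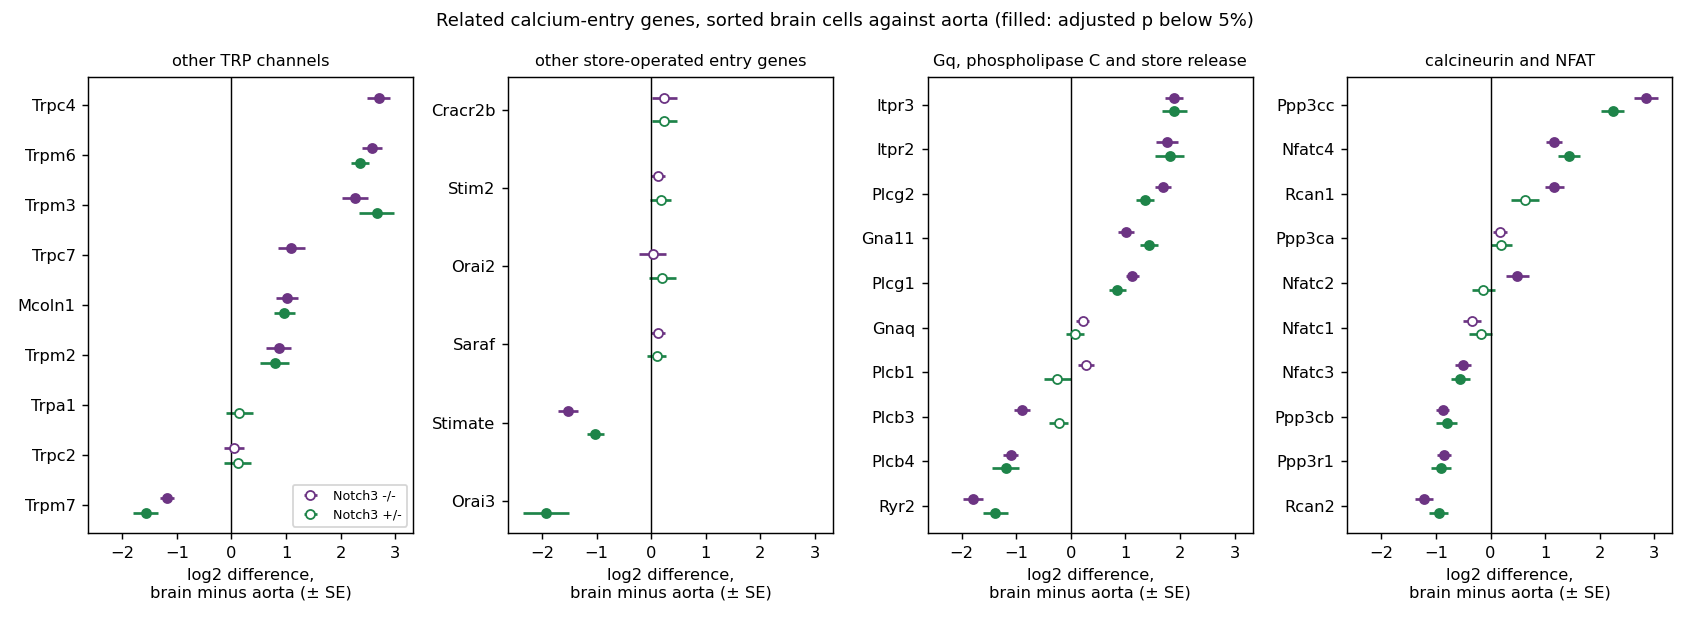
Log2 difference, sorted brain cells minus aorta explants (x axis, bars are SE from limma), for the genes of 4 related lists that passed the filter on low values (y axis), in Notch3 -/- arrays (purple) and Notch3 +/- arrays (green); filled circles passed 5%. Trpm6 (2.58 and 2.36) and Ppp3cc (2.85 and 2.24) are among the largest positive values, and Stimate, Trpm7 and Ryr2 lie below -1 in both genotypes.

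Genes whose levels ran most like each member were found by Pearson's r over the 9 brain arrays, as a description without a test. For Trpv2 they were Aldh18a1 (r = 0.985), Flot2 (0.974) and Susd5 (0.966), and for Orai1 at 1424990_at Timm44 (0.967), Vim (0.963) and Tgm2 (0.949). For Trpm4 they were Plod3 (0.950), Mex3d (0.942) and Kmt5a (0.939), for Trpc1 Dock10 (0.935), Sox6 (0.924) and Triqk (0.920), and for Stim1 at 1436945_x_at Myadml2 (0.927), Slc25a4 (0.914) and Lsm8 (0.912). Trpc6, at its low level, ran with Selenbp1 (0.946), Plcd1 (0.942) and Frg1 (0.917). Over the 6 aorta arrays the same pairs ranged from r = -0.923 (Dock10 with Trpc1) to 0.860 (Kmt5a with Trpm4). Aldh18a1 with Trpv2 was at -0.451 and Triqk with Trpc1 at -0.012 there, so the likeness in brain often did not hold in aorta. Over all 15 arrays, which also carry the difference between preparations, the closest gene was Plekhg2 for Trpm4 (0.981), Rcsd1 for Orai1 (0.976), Triqk for Trpc1 (0.958), Tmem214 for Trpv2 (0.954), Suds3 for Stim1 (0.936) and Ppp1r26 for Trpc6 (0.885), followed for Trpc6 by Trpv2 (0.865).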

How the data were processed

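Per the design text, 15 µg of cRNA went onto each array and the authors scaled each array to a target of 150, so the deposited numbers are probe-set intensity on a linear scale. How probes were summarised or background removed is not stated in the labels. Gene names came from the platform annotation, updated through Entrez identifiers in a RefSeq table (34754 of 34958 probe sets with 1 symbol matched), and promoters from RefSeq (GRCm38.p6). Groups were read from the sample titles. Values were taken as log2(intensity + 16), 64 control probe sets were dropped, and each fit kept the brighter probe sets, those not below the median of the mean log2 values (22519 each). The test was limma's moderated statistic (limma 3.58.1, R 4.3.3, trended prior, two-sided), adjusted by Benjamini-Hochberg over all probe sets tested with a 5% threshold. The fits were tested on simulated data in which probe sets varied independently, so differences in cell composition were not covered. The number of arrays limits the precision. All member probe sets are named. Of the related lists, genes past 5% at their brightest probe set are named, up to 6 per list by smallest p, or the smallest p where none passed, and the 3 genes with the highest r per member. Members and lists were chosen with earlier results of these data known. Alternatives were other pseudocounts (1 and 64), no filter, other scalings, no trend, array weights, all 15 arrays in 1 fit, the number series in the aorta titles, and leaving out each array.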

Additional observations from a re-analysis of the deposited data

How the results depend on the processing

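No paired analysis was possible because the groups share no replicate names. The count of member probe sets past 5% stayed at 0 between genotypes in brain, in aorta and for their difference under every alternative run. Between preparations it was 6 in Notch3 -/- and 5 in Notch3 +/-, and over all alternatives 5 to 6 in Notch3 -/- and 4 to 6 in Notch3 +/-. Centring each array on its median moved the median of all probe sets between preparations by -0.19 in Notch3 -/- and -0.17 in Notch3 +/-. The share of higher calls was then 43.2% against 53.7% as reported in Notch3 -/- and 40.1% against 51.2% in Notch3 +/-. With that centring, in Notch3 +/-, Trpv2 (adjusted p = 0.133) and Stim1 at 1436945_x_at (0.0502) no longer passed and Trpc1 did (0.0235), as it did with all 15 arrays in 1 fit (0.0459). Stim1 at 1448320_at in Notch3 -/- was lost without the filter (0.0755) and with all 15 arrays (0.156). No member changed direction between preparations.

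Some directions between genotypes turned, in values that did not pass. In aorta Stim1 at 1436945_x_at was 0.0029 with each array centred on its median and 0.0117 within the 55xx titles, and Orai1 at 1424990_at was -0.0132 within those titles. With 1 array left out, Stim1 at 1436945_x_at ranged from -0.15 to 0.0499 in aorta, Orai1 at 1424990_at from -0.0472 to 0.0707 and Trpm4 from -0.0412 to 0.12. In brain Stim1 ranged from -0.20 to 0.0495 at 1436945_x_at and from -0.49 to 0.0028 at 1448320_at. For the difference of differences Stim1 ranged from -0.18 to 0.0868 at 1436945_x_at and from -0.37 to 0.12 at 1448320_at.

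Over all probe sets, the count past 5% between genotypes in brain was 32, and 50 with a pseudocount of 64, 18 without the filter, 52 with array weights, 137 with all 15 arrays and 10 to 38 with 1 array left out. In aorta it was 0, and 1 with centring on the median, 2 with all 15 arrays and 0 to 7 with 1 array left out. For the difference between preparations of the genotype effect it was 4, and 13 with array weights and 0 to 7 with 1 array left out.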

Other observations

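Within the Notch3 +/- brain group, array I had the lowest value of the 4 for Trpv2 (177), Trpc6 (2.16), Trpm4 (454), Stim1 at 1436945_x_at (198) and Orai1 at 1424990_at (301), and the highest for Orai1 at 1424989_at (487). Array H had the highest for Trpv2 (351), Stim1 at 1436945_x_at (344) and Orai1 at 1424990_at (469), and the lowest for Trpc1 at 1421096_at (111) and Stim1 at 1448320_at (45.4). These are ranks of 4 arrays and were not tested. Over the 9 brain arrays the probe sets of Orai1 correlated at r = 0.345 and those of Stim1 at r = -0.234. The 5 Notch3 -/- arrays lay closer together for Trpm4 (SD 26.2 against 106) and Stim1 at 1448320_at (SD 9.62 against 45.5). The same held for Trpv2 (27.5 against 71.5) and Orai1 at 1424990_at (35.25 against 75.6) and 1424989_at (51.1 against 112). Stim1 at 1436945_x_at (59.6 against 60.0) and Trpc1 at 1421096_at (24.5 against 24.0) were alike. Over the whole array the lowest r between replicates was 0.955 in Notch3 -/- and 0.932 in Notch3 +/- brain.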
